A study of Mus musculus with 6 samples.

Results

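Genomic imprinting leaves a gene active mainly on the chromosome inherited from a single parent, and 10 imprinted genes were followed in the gastrocnemius, a fast muscle of the mouse calf: H19, Igf2, Peg3, Meg3, Rian, Mirg, Cdkn1c, Grb10, Plagl1 and Ndn. They were picked by name from the authors' deposited table of 11815 genes, with their difference between the genotypes already known. The table listed 9 of them, and Mirg had no row. The difference between knockout and wild type is therefore given below for these genes as a description, with no test.

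The study compared mice lacking the long non-coding RNA lnc-ORA (KO) with wild-type mice (WT) and asked how lnc-ORA bears on the conversion of muscle fibre types. The KO mice carried a CRISPR deletion of 5147 bp that holds the whole lnc-ORA transcript, made with a pair of guide RNAs on a C57BL/6 background, and founders were bred to wild-type mice. RNA was taken at 15 weeks of age, and 3 libraries were sequenced for WT, numbered 2, 3 and 4, and 3 for KO, numbered 1, 2 and 3. The sources used here do not give the number of founder lines, the sex of the mice or whether each library is a separate mouse, so errors measure the spread between these libraries, which may be technical. Values are RPKM, reads scaled to gene length and to the total reads of the library. The deleted locus was not analysed here, and the genotypes are as labelled.

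Many imprinted genes act on growth, and they lie in clusters controlled by stretches of DNA that are methylated on a single parental chromosome. H19, a non-coding RNA made from the maternal copy, shares enhancers with its neighbour Igf2, a growth factor gene made from the paternal copy, and stays abundant in adult skeletal muscle when most other tissues have silenced it. H19 is also the precursor of the microRNA miR-675, and Peg3, a paternally expressed zinc finger gene, heads another cluster on the same chromosome. Meg3, Rian and Mirg are maternally expressed non-coding RNAs that follow each other on chromosome 12 and carry many small RNAs within them.

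The mature forms of miR-675 are shown because the table has a row for its gene inside H19. Their sequences are those of RefSeq (GRCm38.p6, chromosome 7, minus strand), 5′ to 3′, with the seed (bases 2 to 8) in capitals.
mmu-miR-675-5p: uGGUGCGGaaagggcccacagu
mmu-miR-675-3p: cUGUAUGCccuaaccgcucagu
The 5p form lies at chr7:142577112-142577133 and the 3p form at chr7:142577078-142577099. Their seeds differ, so the arms do not share a seed family.

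Upstream stretches of 250 bases are shown for Peg3, the listed member with the largest difference between genotypes, and for Meg3, the foremost gene of the chromosome 12 unit. They are RefSeq windows that end at the transcription start (GRCm38.p6), printed on the gene's own strand, with the palindrome TGACGTCA in capitals.
Peg3: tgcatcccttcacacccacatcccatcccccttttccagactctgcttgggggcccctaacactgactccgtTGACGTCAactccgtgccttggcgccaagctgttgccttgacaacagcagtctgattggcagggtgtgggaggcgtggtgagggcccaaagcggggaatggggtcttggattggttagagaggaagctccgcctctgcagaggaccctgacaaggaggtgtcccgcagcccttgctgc
Meg3: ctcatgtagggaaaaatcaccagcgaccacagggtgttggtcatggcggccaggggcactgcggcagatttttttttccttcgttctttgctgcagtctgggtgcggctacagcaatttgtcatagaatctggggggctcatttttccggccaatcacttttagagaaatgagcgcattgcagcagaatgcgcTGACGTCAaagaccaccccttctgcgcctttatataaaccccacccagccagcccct
The Peg3 window is chr7:6730420-6730669 (minus strand) and the Meg3 window chr12:109540746-109540995 (plus strand). TGACGTCA, the letters of a cyclic AMP response element, reads the same on both strands. It alone was searched, after the sequences were seen, so overlap with other motifs was not examined. It begins 178 bases before the start of Peg3 and 57 bases before that of Meg3. Of 13 windows of the 8 members with a window, 2 held it, and these are the Peg3 and Meg3 windows shown. Over all 32851 windows of the same length 1.55% held it. Since the motif was chosen after the shown sequences were seen, these shares cannot be compared.

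The members spanned almost the whole range of expression in the muscle. In WT the order of mean RPKM was H19, Cdkn1c, Peg3, Igf2, Grb10, Meg3, Ndn, Rian and Plagl1. H19 exceeded the mean level of 99.3% of the listed genes and Plagl1 that of 0.635%. In this order the WT libraries of Cdkn1c and Peg3 overlapped, as did those of Rian and Plagl1. In KO, Igf2 and Grb10 overlapped and so did Ndn and Rian.

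Of the 9 listed members, 4 were lower in every KO library than in every WT library (H19, Peg3, Igf2 and Plagl1) and 3 were higher (Meg3, Rian and Grb10). Of all genes in the table, 38.2% were separated in this way, 29.9% as lower in KO and 8.29% as higher. Cdkn1c and Ndn overlapped between the genotypes. With library medians made equal, or with library totals that leave out the 10 most abundant genes, 6 members still did not overlap and Igf2 did. The share of all genes separated under these scalings was not counted, so this number of members has no background beside it.

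**Figure D1:**
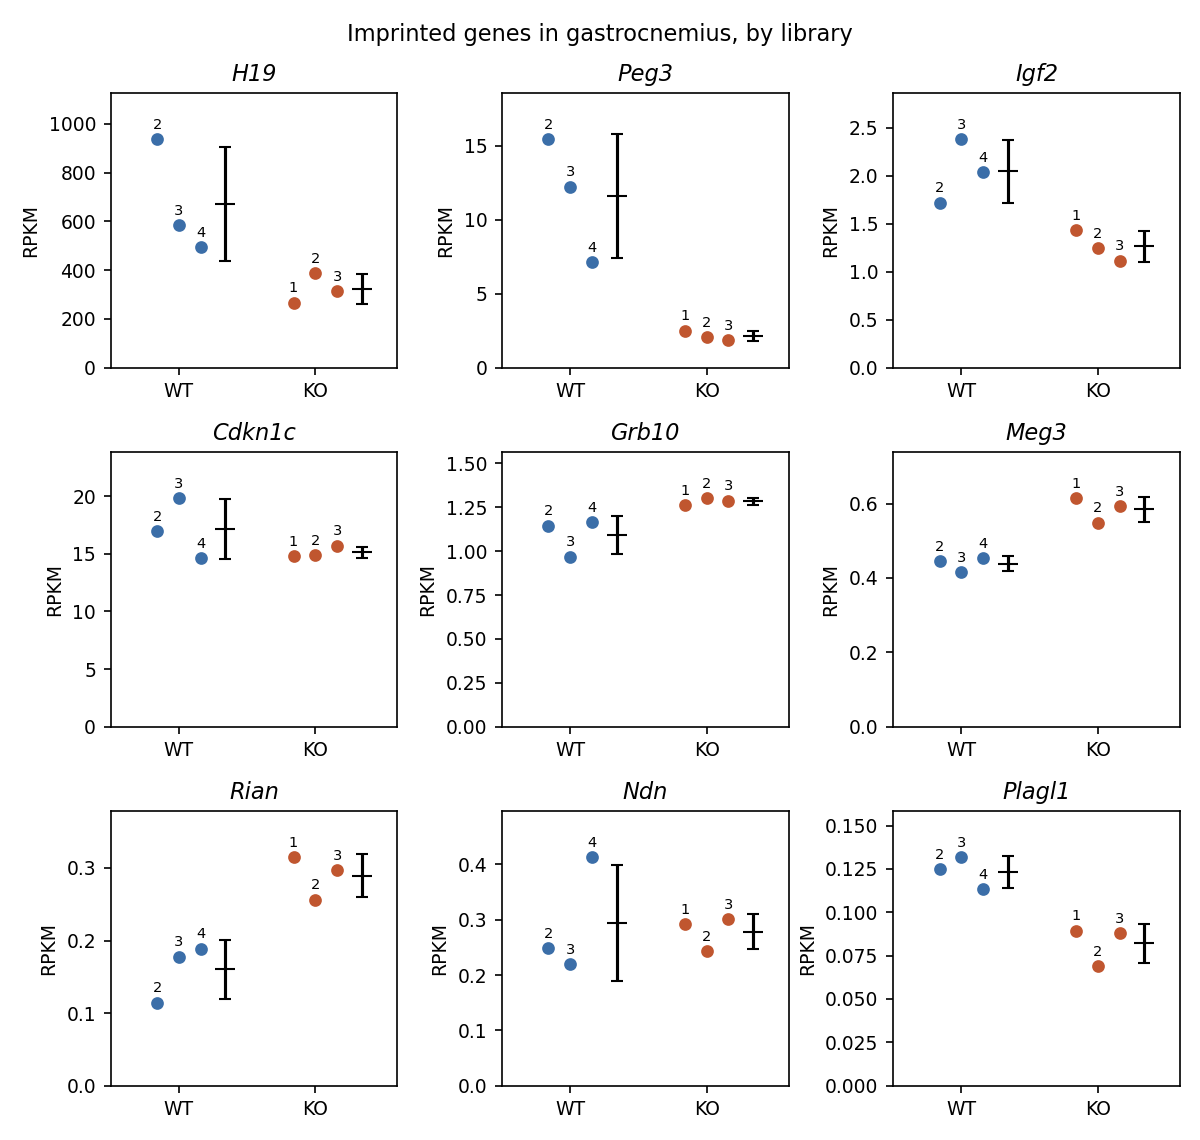
RPKM of the 9 listed imprinted genes in each library, with the replicate number above each point and the group mean ± SD (n = 3) as a bar beside it. Each axis starts at 0 and has its own range. Peg3 spans 7.14 to 15.5 RPKM in WT and 1.85 to 2.51 in KO, while Cdkn1c and Ndn overlap.

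H19 lies at chr7:142575529-142578143 (GRCm38, minus strand). It stood at 937, 583 and 494 RPKM in WT replicates 2, 3 and 4 and at 266, 388 and 313 RPKM in KO replicates 1, 2 and 3. All KO libraries were below all WT libraries, and WT replicate 2 lay well above the other WT libraries. The WT mean of 671 ± 235 RPKM was 2.08 times the KO mean of 322 ± 61.8 (SD over 3 libraries). Without WT replicate 2 the log2 ratio of means was -0.74, against -1.06 with it. H19 took 0.117% to 0.222% of the reads of the WT libraries and 0.0630% to 0.0921% of those of the KO libraries. The values rest on 43296 to 154928 reads per library, so counting error is small beside the spread between libraries.

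Mir675, the gene of miR-675, lies on the same strand inside H19. It had 2203, 1348 and 1150 RPKM in WT replicates 2, 3 and 4 and 611, 881 and 715 RPKM in KO replicates 1, 2 and 3. Its reads came to 8.04% to 8.32% of the reads of H19 in the 6 libraries. Gm27483 and Gm27786, short RNA genes annotated on the opposite strand inside H19, also had reads in step with it: 11.6% to 12.9% and 16.3% to 17.0% of its count. Reads from H19 and Mir675 cannot be told apart by strand. Those from Gm27483 and Gm27786 could be told from H19 only with strand, and the sources used here do not say how strand was handled. The rows do not measure mature miR-675.

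Igf2 is separated from H19 by 72622 bases and has the same strand (chr7:142650766-142666816). It had 1.72, 2.38 and 2.04 RPKM in WT replicates 2, 3 and 4 and 1.43, 1.25 and 1.11 RPKM in KO replicates 1, 2 and 3. The WT mean of 2.05 ± 0.332 RPKM was 1.62 times the KO mean of 1.27 ± 0.161 (SD over 3 libraries). Although both neighbours were lower in KO, they did not run in parallel in WT: replicate 2 had the highest H19 level and the lowest Igf2 level. The ratio of H19 to Igf2 was 546 in that library, 245 and 242 in WT replicates 3 and 4, and 185, 311 and 280 in KO replicates 1, 2 and 3. Most of the sequence of Igf2 (62.1% of its 50-base stretches) also occurs in annotated transcripts of other genes, mainly Gm49394, which overlaps it on the same strand. The Igf2 value may therefore hold reads of that gene.

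Nctc1 and Mrpl23 flank H19 on the side away from Igf2 and were chosen after their values were seen. Nctc1, a muscle non-coding RNA transcribed from the enhancer region that H19 and Igf2 share, stood at 21.9, 30.1 and 39.2 RPKM in WT replicates 2, 3 and 4. In KO replicates 1, 2 and 3 it had 40.5, 36.3 and 39.9 RPKM. The WT library with the most H19 had the least Nctc1, and the genotypes overlapped (log2 difference 0.38, SE 0.18, limma adjusted p = 0.185). Mrpl23, a mitochondrial ribosomal protein gene, ranged only from 5.05 to 5.42 RPKM over the 6 libraries.

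Peg3 lies at chr7:6703892-6730431 (GRCm38, minus strand) and shares no 50-base stretch with another annotated transcript. It stood at 15.5, 12.2 and 7.14 RPKM in WT replicates 2, 3 and 4. In KO replicates 1, 2 and 3 it had 2.51, 2.07 and 1.85 RPKM. The lowest WT library was well above the highest KO library, and the spread was wider in WT. The WT mean of 11.6 ± 4.19 RPKM was 5.42 times the KO mean of 2.14 ± 0.337 (SD over 3 libraries), from 1510 to 14355 reads per library. The log2 ratio of means was -2.44 and stayed between -2.69 and -2.18 when any of the 6 libraries was left out.

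Zim1, a maternally expressed zinc finger gene that ends 7441 bases before Peg3 on the chromosome, had 1.24, 0.742 and 0.559 RPKM in WT replicates 2, 3 and 4. It had 0.351, 0.314 and 0.350 RPKM in KO replicates 1, 2 and 3. Like Peg3 it was highest in WT replicate 2 and lowest in the KO libraries. It was below the filter of at least 1 RPKM in 3 libraries and so outside the main test. With no such filter it passed as lower (log2 difference -0.45, SE 0.11, limma adjusted p = 0.0349). The ratio of Peg3 to Zim1 was 12.5 to 16.5 in WT and 5.30 to 7.16 in KO.

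**Figure D2:**
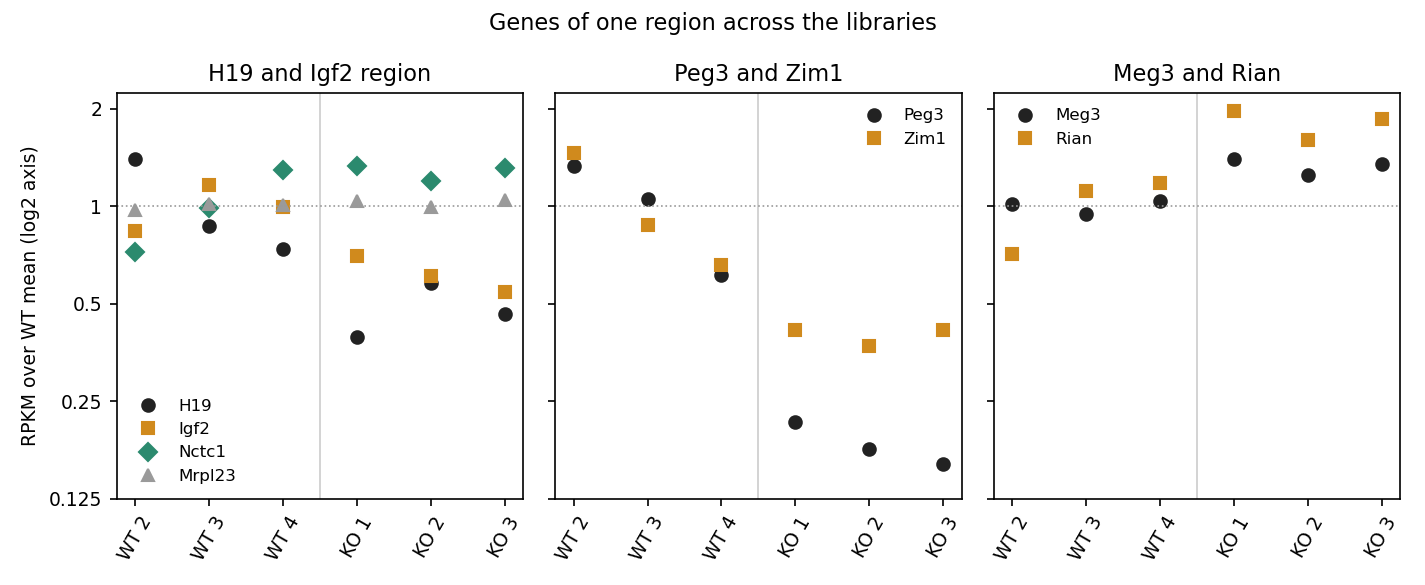
RPKM of neighbouring genes in each library, divided by the mean of the 3 WT libraries of that gene, on a log2 axis (the dotted line marks 1). H19, Igf2, Peg3 and Zim1 are lower in KO and Meg3 and Rian higher, while Mrpl23 stays near 1 and Nctc1 is lowest in WT replicate 2.

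Meg3 and Rian were higher in KO. Meg3, at chr12:109541001-109571726 (GRCm38, plus strand), stood at 0.446, 0.415 and 0.454 RPKM in WT replicates 2, 3 and 4. It had 0.615, 0.549 and 0.593 RPKM in KO replicates 1, 2 and 3. The groups did not overlap, and the spread within each was small. The mean KO level was 1.34 times that of WT, from 408 to 764 reads per library.

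Rian starts 32213 bases after Meg3 and hosts a large array of small nucleolar RNAs. It had 0.114, 0.178 and 0.189 RPKM in WT replicates 2, 3 and 4. The KO libraries were at 0.315, 0.256 and 0.297 RPKM in replicates 1, 2 and 3. The KO mean was 1.81 times the WT mean, and WT replicate 2 was the lowest of all. Meg3 was 2.33 to 3.91 times as abundant per length as Rian in WT and 1.95 to 2.14 times in KO. Rian rests on 139 to 378 reads per library. The authors' gene length for Rian (17475 bases, inferred) and for H19 (2372 bases, inferred) differs from that of GENCODE M21, which does not affect differences between libraries.

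Grb10, an adaptor that dampens insulin and IGF receptor signalling, had 1.15, 0.967 and 1.16 RPKM in WT replicates 2, 3 and 4. It had 1.26, 1.30 and 1.29 RPKM in KO replicates 1, 2 and 3. Each KO library was above each WT library by a narrow margin, and the KO mean was 1.18 times the WT mean. Grb10 is on chromosome 11 (11930508 to 12038683, GRCm38) and shares no 50-base stretch with another transcript.

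Plagl1, a zinc finger transcription factor known in mice to act on other imprinted genes, was near the bottom of the table, with 0.125, 0.132 and 0.113 RPKM in WT replicates 2, 3 and 4. It had 0.0893, 0.0690 and 0.0879 RPKM in KO replicates 1, 2 and 3. The groups did not overlap, but the values rest on 56 to 68 reads in WT and 30 to 48 in KO. With so few reads, counting error is larger for Plagl1 than for any other listed member.

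Cdkn1c, the cell cycle inhibitor p57, had 17.0, 19.8 and 14.6 RPKM in WT replicates 2, 3 and 4 and 14.8, 14.9 and 15.7 RPKM in KO replicates 1, 2 and 3. The genotypes overlapped: the WT mean was 17.1 ± 2.61 and the KO mean 15.1 ± 0.499 RPKM (SD over 3 libraries). Of its 50-base stretches, 24.9% lie in Gm44732, a gene annotated on the opposite strand. Ndn, the gene of necdin, had 0.249, 0.219 and 0.413 RPKM in WT replicates 2, 3 and 4 and 0.292, 0.243 and 0.301 RPKM in KO replicates 1, 2 and 3. It overlapped as well, on 44 to 100 reads per library, and its difference changed sign with equal library medians (difference in log2(RPKM + 1) of -0.01 as deposited and 0.01 then).

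A fit across all tested genes (limma, genes of at least 1 RPKM in 3 libraries) gave differences in log2(RPKM + 1). That scale understates changes of low genes. The filter passed 5 listed members (H19, Igf2, Peg3, Cdkn1c and Grb10), and Meg3, Rian, Plagl1 and Ndn stayed below it. The log2 difference, KO minus WT, was -1.02 (SE 0.24) for H19, -1.95 (SE 0.23) for Peg3 and -0.42 (SE 0.10) for Igf2. It was -0.16 (SE 0.11) for Cdkn1c and 0.13 (SE 0.07) for Grb10. No p is given for the members, since they were chosen on this comparison. Of all 7574 genes in the fit, 13.5% were called lower at an adjusted p under 0.05 and 3.83% higher, 17.3% in all. On whole reads with limma-voom, which covers members below the filter, the log2 difference was 0.42 (SE 0.11) for Meg3, 0.90 (SE 0.20) for Rian and -0.57 (SE 0.22) for Plagl1. These are not on the scale of log2(RPKM + 1). With limma-voom H19 was at -1.02 (SE 0.22), Peg3 at -2.38 (SE 0.25) and Igf2 at -0.68 (SE 0.15). Cdkn1c was at -0.17 (SE 0.12) and Grb10 at 0.23 (SE 0.11) in that fit.

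The authors' deposited table also holds the authors' own comparison of KO with WT, and its fold changes are not those of the 6 deposited RPKM columns. In the authors' deposited table the log2 fold change was -0.27 for H19, where the RPKM means give -1.06, and -1.63 for Peg3, where they give -2.44. In the authors' deposited table Igf2 stood at -0.27 and Plagl1 at -0.03, against -0.69 and -0.59 from the RPKM means. For Meg3, Rian and Grb10 the authors' deposited table gave 0.60, 0.91 and 0.32, against 0.42, 0.85 and 0.23. For Cdkn1c and Ndn the authors' deposited table gave 0.16 and 0.22, of the opposite sign to the -0.18 and -0.08 of the RPKM means. None of the 9 members had an FDR under 0.05 in the authors' deposited table, where 1.62% of all genes did. The authors' FDR of the members ran from 0.0602 for Meg3 to 0.962 for Plagl1, with Peg3 at 0.134 and H19 at 0.741. Over all genes the authors' value exceeded the RPKM ratio by a median of 0.14 and had the opposite sign for 19.1% of them. The excess of H19 and of Peg3 was above that of 99.8% of genes. This rank is over all genes, whatever the size of their change, and genes of like fall were not ranked apart. Among genes that fell about as far as Peg3, Pllp stood at -2.30 from the RPKM means and -1.50 in the authors' deposited table. Nr4a2, at -2.35 and -2.02, had a smaller excess. The sources used here do not say which libraries and scaling the authors' comparison used.

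**Figure D3:**
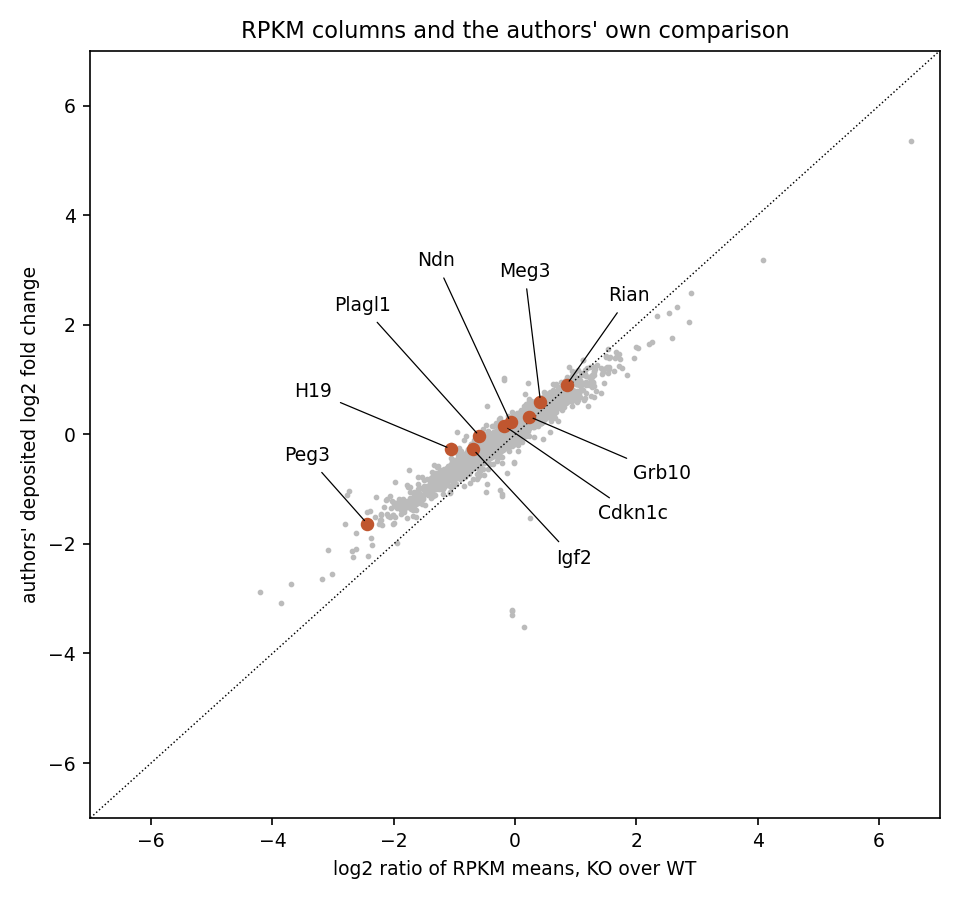
Log2 ratio of RPKM means (KO over WT, horizontal axis) against the log2 fold change in the authors' deposited table (vertical axis) for 11815 genes (grey), with the 9 listed imprinted genes labelled and a dotted line of equality. All 9 listed genes lie above the line, H19 and Peg3 at -0.27 and -1.63 on the vertical axis.

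Imprinted genes outside the chosen set were called about as often as genes at large. Of 52 further imprinted genes, 26 were in the table and 17 were tested: 1 rose and 2 fell, where 17.3% of all tested genes were called. The median log2 difference was -0.06, beside -0.09 over all tested genes. Slc38a4, a paternally expressed amino acid transporter gene, rose from 4.76 ± 0.25 RPKM in WT to 6.84 ± 0.301 in KO (log2 difference 0.44, SE 0.08, limma adjusted p = 0.00901). Zrsr1, a paternally expressed gene related to a splicing factor, fell from 27.9 ± 6.76 to 14.5 ± 0.815 RPKM (-0.87, SE 0.16, limma adjusted p = 0.0114). Asb4, an ankyrin repeat gene of a ubiquitin ligase family, fell from 2.25 ± 0.47 to 1.22 ± 0.131 RPKM (-0.54, SE 0.11, limma adjusted p = 0.0158). All 3 calls ended without KO replicate 3, with limma adjusted p of 0.0503 to 0.0525, and that of Asb4 also without KO replicate 1 (limma adjusted p = 0.0653). Impact, whose product counters the translation stress kinase GCN2, had the next smallest p and was not called (-0.37, SE 0.16, limma adjusted p = 0.146).

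Neighbours of the members within the clusters were read next. The tetraspanin gene Cd81, between Igf2 and Cdkn1c, had a log2 difference of -0.10 (limma adjusted p = 0.400). Nap1l4, a histone chaperone gene beyond Cdkn1c, was at 47.7 to 54.3 RPKM in WT and 51.1 to 59.9 in KO (log2 difference 0.09, limma adjusted p = 0.557). Kcnq1ot1, the paternally expressed antisense RNA that silences this cluster, was below the filter at 0.0482 to 0.0588 RPKM in WT and 0.0764 to 0.103 in KO. Its groups did not overlap.

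**Figure D4:**
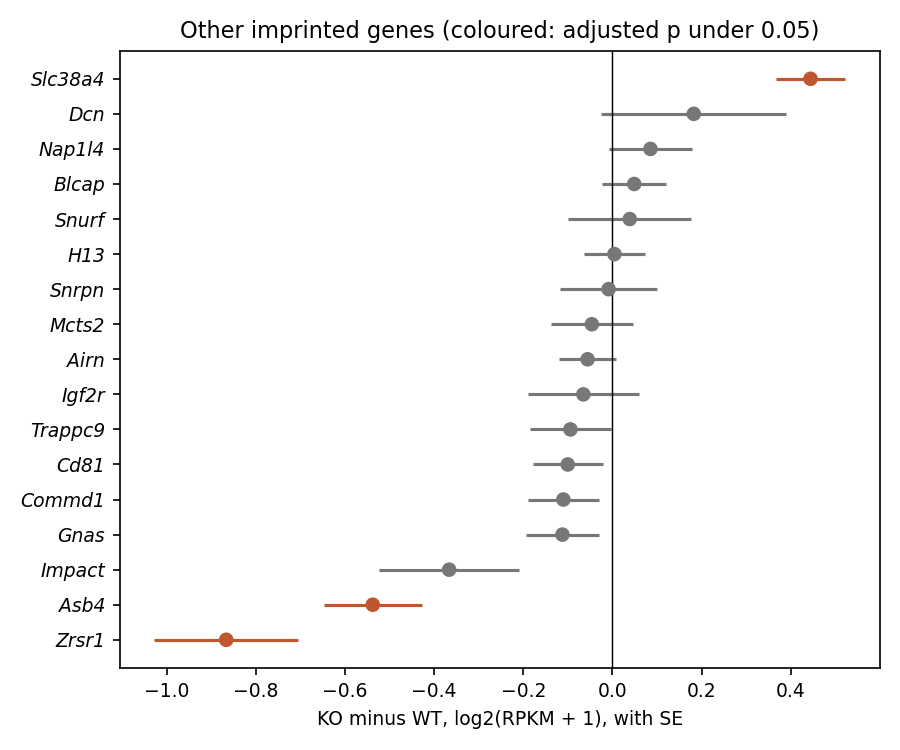
KO minus WT difference in log2(RPKM + 1), with its standard error, for the 17 tested imprinted genes outside the chosen set. Slc38a4 at 0.44, Asb4 at -0.54 and Zrsr1 at -0.87 are coloured as called, and most others lie within 0.2 of 0.

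Genes that maintain or read imprints were taken from a list of 27, of which 20 were in the table and 13 were tested: 3 fell and none rose, where 13.5% of all tested genes fell and 3.83% rose. The median log2 difference was -0.19, beside -0.09 over all tested genes. Zfp445, a zinc finger protein that binds imprinting control regions, had 12.7, 11.9 and 11.3 RPKM in WT replicates 2, 3 and 4 and 7.28, 6.56 and 7.19 in KO replicates 1, 2 and 3. It fell by 0.70 on the log2 scale (SE 0.08, limma adjusted p = 0.00262). Tet2, an enzyme that oxidises methylated cytosine, fell from 1.90 ± 0.17 to 1.06 ± 0.0836 RPKM (-0.49, SE 0.07, limma adjusted p = 0.00581). Trim28, the corepressor that such zinc finger proteins recruit, fell from 2.16 ± 0.261 to 1.55 ± 0.133 RPKM (-0.31, SE 0.09, limma adjusted p = 0.0441). The call of Trim28 ended in 9 of 12 alternatives, among them equal library medians (limma adjusted p = 0.0532). In limma-voom 5 of the 13 tested genes of the list were called lower, beside 1085 of all 7574 tested genes. Ctcf, the insulator protein that sits between H19 and Igf2, was at 4.92 to 5.84 RPKM in WT and 4.64 to 5.79 in KO (log2 difference -0.06, limma adjusted p = 0.712).

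Genes that earlier work tied to H19 or to miR-675 were counted from a list of such symbols. Of 12 symbols, 9 were in the table and 5 were tested. None passed in limma or in limma-voom, while at an unadjusted limma p under 0.05 there were 3, all lower. At that threshold 1957 of all 7574 tested genes were lower and 575 higher. Lpl, the lipoprotein lipase of muscle capillaries, had 60.6, 28.1 and 35.2 RPKM in WT replicates 2, 3 and 4 and 22.2, 29.6 and 23.8 RPKM in KO replicates 1, 2 and 3. It shared the high value of WT replicate 2 with H19 and overlapped between genotypes (log2 difference -0.63, SE 0.25, limma adjusted p = 0.124). Insr, the insulin receptor gene, had a log2 difference of -0.35 (SE 0.12, limma adjusted p = 0.0836).

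Of 19 genes of the IGF axis around Igf2 and Grb10, 12 were tested, 1 rose and none fell, where 3.83% of all tested genes rose and 13.5% fell. The riser was Igfbp5, which encodes an IGF-binding protein, with 8.39, 8.35 and 15.2 RPKM in WT replicates 2, 3 and 4 and 22.9, 27.0 and 25.7 in KO replicates 1, 2 and 3 (log2 difference 1.22, SE 0.20, limma adjusted p = 0.00784). Igf2r, the imprinted receptor that clears IGF2, overlapped, at 2.47 to 3.87 RPKM in WT and 2.74 to 3.17 in KO (limma adjusted p = 0.745).

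Genes with the most similar levels were ranked by Pearson's r of log2(RPKM + 1), a description over 6 libraries. Within a library all genes share its depth and scaling. For H19 they were Mir675 and Gm27786, which lie inside H19, and then Gm45507 (r = 0.998). For Peg3 they were the squalene synthase gene Fdft1 (r = 0.997), the Notch regulator Numb (r = 0.997) and the TNF receptor Tnfrsf1a (r = 0.996). H19 had 1379 of 7573 other tested genes above r = 0.9 and Peg3 had 1066, so many genes share these patterns. After the genotype means were removed, H19 was nearest to Rexo4 and again to Mir675 and Gm27786. Peg3 was nearest to Sparc, Plbd1 and Gmps , in that order, the last with r = 0.989. There 1259 genes passed r = 0.9 with H19 but 185 with Peg3. H19 and Peg3 had r = 0.914 over the 6 libraries and r = 0.655 within the genotypes.

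Markers of other cell types moved with the genotype in part, and their part in the results above was not tested. In bulk muscle fewer cells of a type and less RNA per cell cannot be told apart. Prx, which encodes the myelin protein periaxin of Schwann cells, had 2.20, 2.83 and 2.02 RPKM in WT replicates 2, 3 and 4 and 0.595, 0.474 and 0.460 RPKM in KO replicates 1, 2 and 3 (log2 difference -1.14, SE 0.10, limma adjusted p = 0.00104). Pmp22, another myelin protein gene, had 8.66, 13.7 and 11.0 RPKM in the same WT libraries and 3.28, 2.39 and 2.42 RPKM in the KO libraries (-1.70, SE 0.16, limma adjusted p = 0.00136). Both fell, with no overlap between the genotypes. The summed RPKM of 12 of 12 endothelial markers was 30.2 to 45.5 in WT and 26.3 to 28.8 in KO, with 1 of 9 tested called lower, the tight junction gene Cldn5 (limma adjusted p = 0.00744). The sum of 12 of 12 stromal markers overlapped, at 22.0 to 38.1 in WT and 32.5 to 41.4 in KO, and 2 of 7 tested, Col3a1 and Smoc2, were called higher, beside 3.83% of all tested genes. Each of these calls ended in 5 of 12 alternatives, those that leave out any library but WT replicate 2 (limma adjusted p of up to 0.107 and 0.137). That of 8 of 8 mural markers overlapped too, at 65.8 to 107 and 72.4 to 90.9, and Pdgfrb had the smallest p of its 6 tested genes (limma adjusted p = 0.115). WT replicate 2 had the highest sum of endothelial, stromal and mural markers among the WT libraries, as it had of H19 and Peg3. The same library was also highest in WT for the myogenic and macrophage sums and for Fabp4. Its median RPKM of tested genes was 4.11, against 3.64 and 3.68 in WT replicates 3 and 4. It was lowest in WT for Pmp22 and for the sum of defining fast muscle genes. Sums of 10 of 16 myogenic and satellite cell genes (767 to 832 in WT, 754 to 823 in KO) and of 3 of 8 macrophage markers (2.98 to 6.72 and 3.67 to 6.47) overlapped. Of 6 tested myogenic genes Myog, the myogenin gene, was called lower (log2 difference -0.54, limma adjusted p = 0.0293). That call ended in 6 of 12 alternatives, among them equal library medians (limma adjusted p = 0.0505) and the libraries WT 2, WT 3, KO 2 or KO 3 left out (up to 0.108). The 1 tested macrophage gene, Lyz2, was not called (limma adjusted p = 0.851). Of 6 adipocyte markers only Fabp4 was in the table, which endothelium also expresses, and it fell, a call that ended without KO replicate 3 (limma adjusted p = 0.0681). No summed marker was at 0 in any library, and the markers with no row were not measured here.

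The muscle identity of the samples was plain: 10 of 10 defining fast muscle genes were in the table, summing to 81438 to 89472 RPKM in WT and 90545 to 94097 in KO. Of these Myh1 and Myh2, myosins of fast fibres, were called lower (limma adjusted p of 0.0225 and 0.0261). Both calls ended when WT replicate 2, WT replicate 3, KO replicate 1 or KO replicate 3 was left out (limma adjusted p of up to 0.0885 and 0.102). Library totals, fitted from the RPKM values, were 54370181 to 69693905 reads. The 10 most abundant genes took 44.4% to 48.3% of them in WT and 50.2% to 53.9% in KO. Among the 7574 tested genes 290 were called higher and 1021 lower in KO. With equal library medians the calls were 594 and 707, so directions of small differences depend on the scaling.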

How the data were processed

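Per the labels' protocols, mRNA of 6 gastrocnemius samples was fragmented and copied with random hexamers before sequencing. The submitters' processing notes name the build GRCm39, while for the aligner, counter, annotation and strand the sources used here say nothing. The authors deposited RPKM values per gene, a unit inferred from the values since the header names none. The authors' log2 fold change, log2 CPM, F score, p-value and FDR columns are named per the file headers, and their test is not given there. Library totals were fitted so that RPKM times gene length and total gave whole reads for as many genes as possible. With these totals the length of GENCODE M21 (GRCm38) gave whole reads (within 0.02) for 80.4% of 11482 matched symbols. Each other length was inferred as the shortest that gave whole reads in all 6 libraries. Whole reads for 100.0% of genes are therefore an outcome of the search and no check of it. These reads cover counting error only. Coordinates, overlaps and sequences are of GRCm38, another build than the one noted.

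The main test was limma-trend (version 3.58.1 under R 4.3.3) of KO against WT. It used log2(RPKM + 1) and kept genes that reached 1 RPKM in 3 or more libraries. The p-values were adjusted over all tested genes by Benjamini-Hochberg, with a threshold of 0.05. The log2(RPKM + 1) scale understates changes of low genes. The fit was tested on simulated data in which every gene had the same relative spread between libraries beyond counting error. That spread was narrower than that of H19 and Peg3 in WT, so errors at such a spread were not tested. Adjusted p of named genes come from limma. The members and gene lists were chosen with earlier results of these data known. Named are all members, the 4 other imprinted genes of smallest p, up to 3 called genes of each further list (or that of smallest p), the genes most like H19 and Peg3, and neighbours in the imprinted clusters. Nctc1, Mrpl23, Gm27483, Gm27786, Lpl, Igf2r, Ctcf, Pllp and Nr4a2 were chosen after their values were seen. Alternatives were another pseudocount, no filter, 2 other scalings, each library left out, a replicate block and limma-voom on whole reads. Other steps and the plots were made in Python 3.11.15 (pandas 2.3.3; matplotlib 3.10.9; numpy 2.4.6). The totals and counts of the Schwann cell marker list are not reported here.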

Additional observations from a re-analysis of the deposited data

How the results depend on the processing

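Among the 9 listed imprinted genes, 3 to 4 were higher in KO under every alternative run, and the gene whose side changed was Ndn. The log2 ratio of RPKM means of H19 was -1.24 to -0.74 when each library was left out. With equal library medians 594 genes were called higher, and with totals that leave out the 10 most abundant genes 680 were called higher and 613 lower, against 290 and 1021. Leaving out each library in turn gave 117 to 344 genes called higher and 354 to 1293 called lower. Fewest were called without KO replicate 3, and counts also moved by over 1.5 times without WT replicate 3, KO replicate 1 or KO replicate 2, with 138, 149 and 151 called higher. Without KO replicates 1 and 2 in turn 384 and 511 were called lower. For the other imprinted genes it gave 0 to 1 called higher and 0 to 2 called lower, and with no filter on low values 4 were called lower, Zim1 and Ppp1r9a being added. For replicate numbers 2 and 3, which both genotypes have, the correlations of deviations were 0.48 and 0.27. WT replicate 4 and KO replicate 1, which share no number, had 0.43, and the remaining pairs had -0.39 to -0.05. Deviations within a genotype cancel, so the value of WT replicate 4 and KO replicate 1 is tied to those of the other pairs. The correlations therefore cannot decide whether same-numbered libraries belong together. Nothing in the labels says that a number pairs mice. With replicate number as a block 377 genes were called higher and 1171 lower, and of the other imprinted genes 1 and 3. In that fit WT replicate 4 and KO replicate 1 have no partner, so the difference rests on replicates 2 and 3 of each genotype. Little is then left to measure the spread, and its counts are weaker grounds than those of the other alternatives. Single called genes lost their call in 38 comparisons with an alternative, and no direction of theirs reversed. Depth limits Plagl1 (30 reads in its lowest library) and Ndn (44). The cause of these changes was not tested.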

Other observations

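The ribosomal RNA rows Gm42418 and Rn18s-rs5, chosen after their values were seen, had log2 ratios of RPKM means of -0.05 and -0.05. In the authors' deposited table their log2 fold changes were -3.22 and -3.22. The rows of H19 and Mir675 had -0.27 and -0.31 there.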
